A study of Mus musculus with 12 samples.

Results

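RNA from c-Kit(+) cells of uninjured mouse hearts was described here as it stood before myocardial infarction (MI), in 3 of the 12 libraries of the series. The members were the 3 libraries that the labels place before MI, and no other group was set beside them. Per the labels' protocols, the mice were C57BL6 animals of 8 weeks with the alleles c-KitCreERT2 and mTeG, and each received tamoxifen intraperitoneally at 0.5 mg a day for 14 days. Tamoxifen activates a Cre enzyme made where the c-Kit promoter is active, and the reporter allele then marks those cells with eGFP. The cells were taken from cardiac biopsies 1 day before MI, so the animals carried both alleles and had received tamoxifen, but no infarction, vehicle or Sfrp2. How the cells were purified, and whether each library came from a separate animal, the sources used here do not say. The spread between libraries may therefore be partly technical.

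Kit encodes the receptor for stem cell factor and is found on blood progenitors and mast cells, and in the heart also on part of the endothelium. A Cre driven from this gene leaves a permanent mark, so a marked cell and its progeny need not go on making Kit RNA. Capillary endothelial cells of the heart take up fatty acids and hand them to cardiomyocytes, and Fabp4 and Cd36 are known for their part in that transport. Cardiomyocytes are recognised by the proteins of the sarcomere, such as the cardiac actin Actc1 and the troponin Tnnt2, both chosen along with Fabp4 and the endothelial cadherin Cdh5 as markers for these libraries.

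Each library held between 3462396 and 3570993 reads over the 15223 listed genes. Most of them lay in the 22 genes of the mitochondrial genome, at 94.5% in replicate 1, 97.2% in replicate 2 and 94.9% in replicate 3. Mitochondrial ribosomal RNA alone held 82.6%, 86.7% and 84.6% of the reads of replicates 1, 2 and 3. The remaining 15201 genes (nuclear genes) shared 189984 reads in replicate 1, 97858 in replicate 2 and 181182 in replicate 3. Those reads set the precision of all that follows, and replicate 2 had the fewest. Values are the authors' normalized read counts, that is, reads divided by a size factor for each library, and levels of different genes are compared per kb of annotated exon. A count of 3 reads corresponded to a value of 2.84 in replicate 1, 5.38 in replicate 2 and 3.41 in replicate 3. At least 1 read was found in every library for 7384 nuclear genes, and no read in any of them for 3800. The median nuclear gene had a mean value of 2.33 on the scale of normalized values, and 580 genes reached a mean of 50.

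The 4 chosen markers were all abundant, and they mark both endothelium and cardiac muscle. Fabp4, the fatty acid binding protein of capillary endothelium and adipocytes, had values of 1891, 2062 and 1958 in replicates 1, 2 and 3. Its mean of 1970 ± 86.2 (SD, n = 3) was the fifth highest of all nuclear genes, and its libraries lay close together. Cdh5, the cadherin of endothelial cell junctions, had values of 463, 393 and 478 in replicates 1, 2 and 3, a mean of 445 ± 45.6 (SD, n = 3) and rank 34. Actc1, the cardiac actin, had values of 608, 669 and 729, a mean of 669 ± 60.4 (SD, n = 3) and rank 15. Tnnt2, cardiac troponin T, had values of 412, 801 and 630, a mean of 614 ± 195 (SD, n = 3) and rank 17. Of these 4 genes Tnnt2 varied most between libraries, with replicate 1 low and replicate 2 high. Per kb of exon the mean levels were 439 for Fabp4, 413 for Actc1, 106 for Cdh5 and 79.3 for Tnnt2, so that Fabp4 and Actc1 stood close together.

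Kit itself had few reads, and in replicates 2 and 3 it was near the limit of detection. It had 19 reads in replicate 1, 4 in replicate 2 and 5 in replicate 3, which correspond to values of 18.0, 7.17 and 5.68. The mean was 10.3 ± 6.71 (SD, n = 3) at rank 3492, and replicate 1 was above the other two. Per kb of exon Kit reached 1.15, where the median nuclear gene had 0.490. Its ligand gene Kitl had values of 130, 115 and 96.6 in replicates 1, 2 and 3 and a level of 19.2 per kb.

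Of the 30 nuclear genes with the highest means, 21 were neither noncoding, globin nor predicted genes. The general endothelial, capillary and basement membrane lists held 5 of them (Fabp4, Cd36, Sparc, Hspg2 and Col4a1), the sarcomere list 3 (Actc1, Tnnt2 and Tpm1), and 10 were in no list. Sparc, a matrix protein of basement membranes, had values of 1292, 1049 and 1401 in replicates 1, 2 and 3. Cd36, the fatty acid translocase, had 1347, 1090 and 1044, and was highest in replicate 1. Epas1, the hypoxia-responsive factor HIF-2α that endothelium expresses strongly, had 790, 672 and 800. The spectrin gene Sptbn1, which holds up the plasma membrane, had 805, 927 and 846. Gpr116, an adhesion receptor of endothelium and lung epithelium, had 630, 558 and 545, and the junctional adhesion molecule gene F11r had 507, 482 and 496. In each of these 6 genes the highest library was less than 1.5 times the lowest. Further members of the top 30 were Myadm, Ahnak, the membrane-trafficking gene Ehd2, the caveolar coat gene Ptrf, the RNA-binding gene Qk and the chemokine gene Cxcl12. Cxcl12 ranged more widely, at 691, 475 and 454 in replicates 1, 2 and 3.

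**Figure D1:**
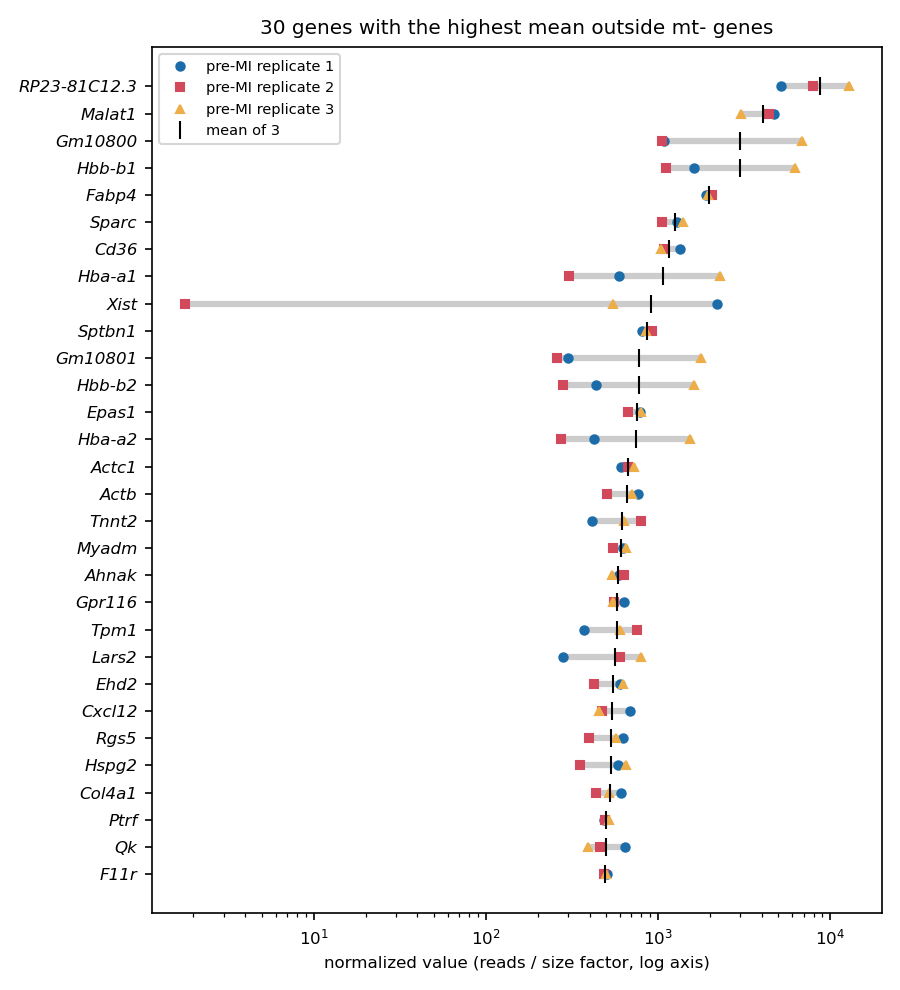
Normalized value of the 30 nuclear genes with the highest mean, on a log axis, with 1 symbol for each pre-MI replicate, a grey bar over the range and a black tick at the mean of 3. Fabp4, Sparc, Cd36, Epas1 and F11r have closely placed symbols, while Xist, the globin genes, Gm10800 and Gm10801 are spread widely.

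The first places were held by RNAs that name no cell type. RP23-81C12.3 had values of 5206, 7983 and 12830 in replicates 1, 2 and 3. In GENCODE vM21 its identifier belongs to Gm42418, a long noncoding RNA on the plus strand at chr17:39846958-39848788 (GRCm38), where RefSeq places the ribosomal RNA pseudogene Rn18s-rs5. Malat1, a nuclear noncoding RNA abundant in most cells, had 4706, 4383 and 3050. The predicted genes Gm10800 and Gm10801, neighbours on chromosome 2, were about level in replicates 1 and 2 and far higher in replicate 3: Gm10800 had 1089, 1051 and 6822, and Gm10801 had 298, 258 and 1781. Reads that map to 1 place can still be shared unevenly between repeated copies, so values of such genes are uncertain. Levels per kb of exon were ranked only among the 577 genes with a mean of at least 50 and a known exon length. The first 10 of these were RP23-81C12.3, Gm10800, Gm23935, Hbb-b1, Gm10801, Hba-a1, Hba-a2, Hbb-b2, Malat1 and Fabp4. Among those 577, Fabp4 was thus the highest of the coding genes that are neither predicted nor globin genes on that scale as well. The 100 highest genes by mean value and the 100 highest per kb among those 577 shared 66 genes.

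Endothelial genes were present throughout. All 24 genes of a general endothelial list had at least 1 read in every library, and 15 of them had a mean of at least 50. Plvap had only 1 read in each library, which is under the floor of 3 reads. Of all 15201 nuclear genes, 7384 had a read in every library and 580 reached that mean. Together the 24 genes held 1.79% of nuclear reads in replicate 1 (95% Wilson interval 1.73 to 1.85), 1.63% in replicate 2 (1.55 to 1.71) and 1.57% in replicate 3 (1.51 to 1.63). Their median level was 17.1 per kb, against 0.490 for all nuclear genes. The receptor phosphatase gene Ptprb, which acts on the angiopoietin receptor, had values of 449, 464 and 454 in replicates 1, 2 and 3. The VEGF receptor genes Kdr and Flt1 followed, Kdr with 402, 323 and 324, and Flt1 with 328, 292 and 290. The junction protein gene Pecam1 had 251, 247 and 291, and the secreted factor gene Egfl7 had 254, 217 and 284. These values differed little between libraries. Ptprb had one of the smallest coefficients of variation (SD divided by mean) of genes with a mean of at least 100. It was 0.0166, below the 0.0533 that counting error alone would give.

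Genes of capillary endothelium and fatty acid uptake made up a larger share of reads than the general list. All 16 were detected in every library and together held 2.74%, 2.72% and 2.29% of nuclear reads in replicates 1, 2 and 3 (mean 2.58% ± 0.256, SD, n = 3). Fabp4 was the highest member, and without it the mean share was 1.52%, below the 1.66% of the general list. Without its own highest member the general list held 1.42%. The water channel gene Aqp1 had values of 324, 393 and 456 in replicates 1, 2 and 3. The matrix gene Sparcl1 had 433, 325 and 341, and Cav1, which forms caveolae, had 326, 316 and 264. The apelin receptor gene Aplnr had 163, 138 and 159. Reads of this list were 1.53, 1.67 and 1.46 times those of the general endothelial list in replicates 1, 2 and 3, so the ratio was nearly level.

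Genes that mark other kinds of endothelium were lower. The arterial list, of which 9 of 10 genes were listed, held 0.0995%, 0.0899% and 0.0922% of nuclear reads in replicates 1, 2 and 3. Its highest member was Efnb2, an ephrin of arterial endothelium, with values of 86.1, 87.9 and 98.8. The venous and endocardial list held 0.0490%, 0.0654% and 0.0353%, led by the ephrin receptor gene Ephb4 with values of 39.7, 41.2 and 36.4. Most reads of the lymphatic list came from Flt4, a VEGF receptor gene that blood endothelium can also express, with 66, 23 and 53 reads in replicates 1, 2 and 3. The lymphatic regulator Prox1 had 7, 8 and 3 reads, Lyve1 had 1, 0 and 3, and Reln had none. The arterial marker genes Gja5, with 10, 2 and 0 reads, and Gja4, with 1 read in each library, were thus under the floor of 3 reads in replicates 2 and 3.

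Basement membrane genes, which endothelium shares with pericytes and muscle, were all 11 detected in every library. They held 1.82%, 1.45% and 1.66% of nuclear reads in replicates 1, 2 and 3. Sparc carried much of that share, and the mean share was 0.980% without it and 1.65% with it. The collagen IV genes Col4a1, with values of 612, 437 and 520, and Col4a2, with 312, 265 and 273, build the network of the basement membrane. The perlecan gene Hspg2 had 584, 351 and 655, with replicate 2 lowest. Nid1, which links collagen IV to laminin, had 178, 181 and 206. The ratio to general endothelial reads was 1.02, 0.890 and 1.06 in replicates 1, 2 and 3.

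**Figure D2:**
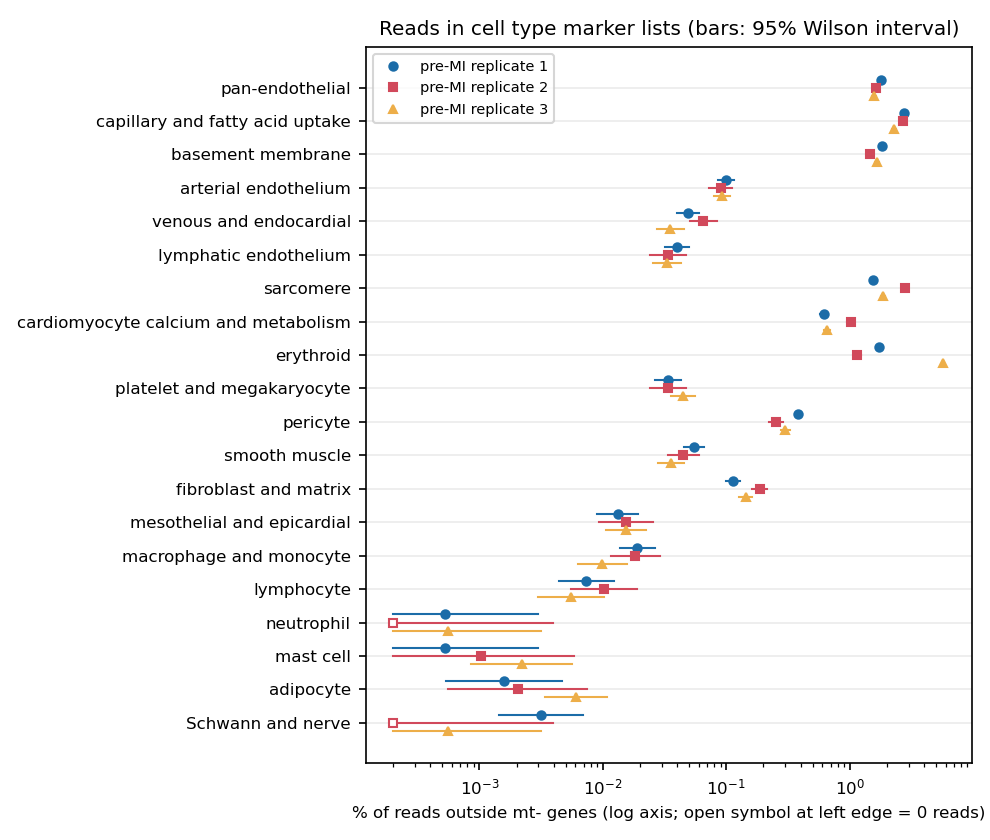
Share of nuclear reads held by each marker list, in percent on a log axis, with 1 symbol for each pre-MI replicate and a bar for its 95% Wilson interval, which covers counting error only. Endothelial, capillary, basement membrane, sarcomere and erythroid lists lie above 1% in each replicate, and neutrophil, mast cell, adipocyte and Schwann lists are near or at 0 reads.

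Sarcomere genes held a smaller share of reads than the general endothelial list in replicate 1 and a larger one in replicates 2 and 3. Their share also differed more between libraries. Of 24 genes, 23 were listed, 21 were detected in every library and 12 had a mean of at least 50. Together they held 1.55% of nuclear reads in replicate 1 (1.496 to 1.607), 2.82% in replicate 2 (2.72 to 2.93) and 1.87% in replicate 3 (1.81 to 1.94). Their reads were 0.866, 1.73 and 1.19 times those of the general endothelial list in replicates 1, 2 and 3. In bulk RNA, a smaller number of cells of a type and less RNA per cell cannot be told apart. The median level of the list was 14.5 per kb, close to the 17.1 per kb of the general endothelial list.

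The thin filament gene Tpm1, which encodes tropomyosin, had values of 372, 753 and 599 in replicates 1, 2 and 3. The cardiac myosin heavy chain gene Myh6 had 227, 439 and 327, and its light chain genes were similar in pattern, Myl2 with 196, 387 and 299 and Myl3 with 128, 283 and 174. Ttn, the giant spring protein of the sarcomere, had 329, 705 and 441, but with its very long transcript only 4.21 per kb. In all 5 of these genes replicate 2 was highest, replicate 1 lowest and replicate 3 between them. Among the 12 sarcomere genes that reached a mean of 50, 11 were highest in replicate 2 and 11 lowest in replicate 1. Of all 580 genes with such a mean, 141 (24.3%) were highest in replicate 2 and 175 lowest in replicate 1. Scaled by each library's nuclear reads, 12 of the 12 were highest in replicate 2, and with TMM factors 10. Actc1 was the exception under the authors' scaling and was highest in replicate 3.

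Cardiomyocyte genes outside the sarcomere followed the same order. The list of calcium handling and metabolism genes held 0.614%, 1.02% and 0.657% of nuclear reads in replicates 1, 2 and 3, with 16 of 19 listed genes detected in every library. Myoglobin (Mb), the oxygen store of muscle, had values of 299, 504 and 370. The mitochondrial ADP/ATP carrier gene Slc25a4 had 218, 420 and 225, and Pln, the inhibitor of the calcium pump, had 220, 362 and 229. The pump itself, Atp2a2, had 115, 140 and 139, so its libraries 2 and 3 were nearly equal. All 4 genes were highest in replicate 2, or 3 of the 4 with TMM factors. Nuclear genes of the respiratory chain, which are not particular to muscle, held 0.599%, 0.967% and 0.613%. Atp5a1, a subunit of ATP synthase, had values of 240, 337 and 236, and Atp5g3, another subunit, had 152, 237 and 189. Replicate 2 was also the library with the highest share of mitochondrial reads and the fewest nuclear reads, and the part of either in these values was not tested.

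**Figure D3:**
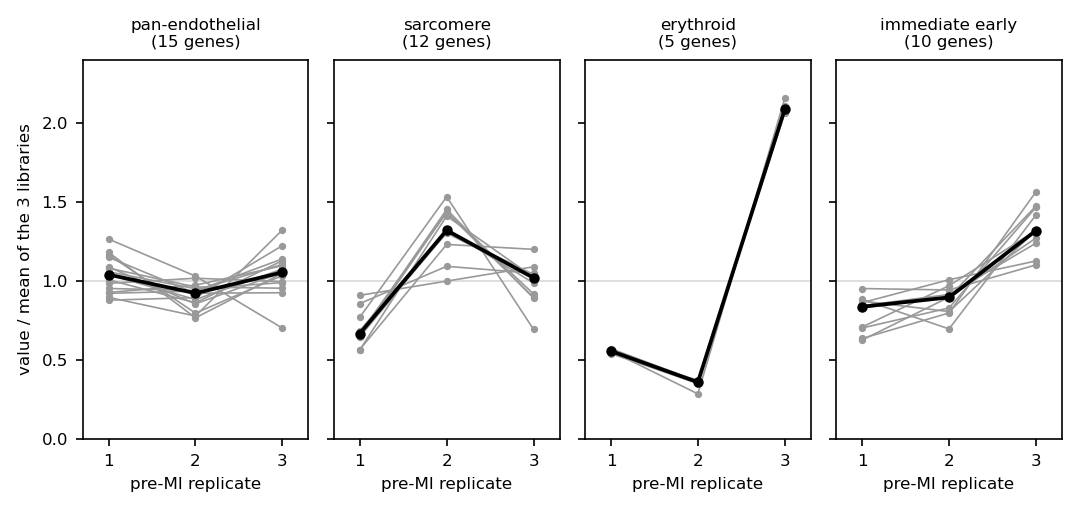
Value of each gene divided by its mean over the 3 pre-MI libraries, for list members with a mean of at least 50, with grey lines joining the values of 1 gene and a black line at the median. Median relative values of sarcomere genes were 0.668, 1.32 and 1.02 in replicates 1, 2 and 3, those of erythroid genes 0.557, 0.360 and 2.09, and those of general endothelial genes 1.04, 0.923 and 1.06.

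The sequence upstream of several sarcomere genes was read from RefSeq (GRCm38.p6), from 250 to 31 bases before the annotated start. It was searched on both strands for the CArG box, which serum response factor binds, and for TATAAA and AGATAA. A CArG box was found in 427 of 32851 promoters of the same length (1.30%), TATAAA in 9.95% and AGATAA in 9.04%. Among 8 sarcomere genes searched (Actc1, Tnnt2, Tpm1, Ttn, Myh6, Myl2, Myl3 and Tnni3), the windows of Actc1 and Myl3 held a CArG box. The windows of Tnnt2 and Myl2 that come first held AGATAA, the other Myl2 window held TATAAA, and neither motif was found in the windows of the other 6 genes. The CArG box began 47 bases before the start in Actc1 and 85 bases before it in Myl3. Both windows are shown 5′ to 3′ on the strand of the gene, with the CArG box in capitals, and that of Tnnt2 is shown beside them as a window with AGATAA and no CArG box, in lower case throughout. The Actc1 window lies on the minus strand at chr2:114052906-114053125, the Myl3 window on the plus strand at chr9:110763428-110763647, and the Tnnt2 window, the first of 2 listed, on the plus strand at chr1:135836084-135836303.
Actc1: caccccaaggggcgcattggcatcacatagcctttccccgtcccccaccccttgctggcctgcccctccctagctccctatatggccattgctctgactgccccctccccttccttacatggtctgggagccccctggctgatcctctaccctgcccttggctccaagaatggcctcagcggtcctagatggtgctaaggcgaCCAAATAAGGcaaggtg
Myl3: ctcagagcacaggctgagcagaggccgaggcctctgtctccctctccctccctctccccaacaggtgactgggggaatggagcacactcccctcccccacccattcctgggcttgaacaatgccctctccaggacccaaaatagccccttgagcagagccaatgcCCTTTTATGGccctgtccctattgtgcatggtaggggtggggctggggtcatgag
Tnnt2: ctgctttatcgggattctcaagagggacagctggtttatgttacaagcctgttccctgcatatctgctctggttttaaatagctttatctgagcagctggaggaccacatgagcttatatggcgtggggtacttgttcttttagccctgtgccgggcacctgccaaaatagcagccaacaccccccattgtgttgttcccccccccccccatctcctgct
A motif match is a description of these letters. Its part in the levels of these genes, or in their order between libraries, was not tested.

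Red cell transcripts were abundant and uneven. The 7 erythroid genes held 3303 reads in replicate 1, 1130 in replicate 2 and 10420 in replicate 3, or 1.74%, 1.16% and 5.75% of nuclear reads. Hbb-b1, an adult beta globin, had values of 1611, 1112 and 6232 in replicates 1, 2 and 3, and Hba-a1, an alpha globin, had 593, 305 and 2296. Hbb-b2 had 439, 280 and 1613, and Hba-a2 had 426, 273 and 1535. The paired globin genes are near copies of each other, so the split between them is uncertain. Alas2, which starts heme synthesis in red cell precursors, had 36.0, 23.3 and 140. In all 5 genes replicate 3 was highest and replicate 2 lowest, under each of the 3 scalings tried. Slc4a1, the anion exchanger of the red cell membrane, had 17.0, 23.3 and 17.0 and did not share that order. Platelet genes were far lower, at 64, 33 and 81 reads in replicates 1, 2 and 3, led by the chemokine gene Ppbp with 44, 22 and 37 reads.

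Immediate early genes, which are switched on within minutes of a stimulus, were also well represented. The 18 genes of this list held 0.815%, 0.921% and 1.20% of nuclear reads in replicates 1, 2 and 3. The phosphatase gene Dusp1 had values of 301, 278 and 454, the transcription factor gene Egr1 had 198, 271 and 368, and the mRNA-decay factor gene Zfp36 had 175, 138 and 281. The AP-1 subunit genes followed, Jun with 116, 167 and 274 and Fos with 144, 156 and 211. All 10 members that reached a mean of 50 were highest in replicate 3, against 233 of all 580 such genes (40.2%). Scaled by each library's nuclear reads, 8 of the 10 were highest there. Of the heat shock genes only Hsp90ab1 and Hspa5 reached a mean of 50, and Hspa1a, an inducible member, had values of 20.8, 25.1 and 75.0.

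Supporting cells of the vessel wall and the stroma left a smaller trace. The pericyte list held 0.384%, 0.253% and 0.301% of nuclear reads in replicates 1, 2 and 3, nearly all from Rgs5, with 661, 223 and 503 reads. Rgs5, a regulator of G-protein signalling, is not confined to pericytes, and their receptor Pdgfrb had only 7, 4 and 6 reads and Cspg4 4, 2 and 1. Smooth muscle genes held 0.0547%, 0.0450% and 0.0359%, with the smooth muscle myosin Myh11 at 3, 0 and 1 reads and the genes Cnn1 and Actg2 at 0. Fibroblast and matrix genes held 0.114%, 0.186% and 0.144%. Fn1, Col1a1 and Gsn led that list, and Col1a1, the main chain of collagen I, had values of 36.9, 53.8 and 64.8. The fibroblast receptor gene Pdgfra had 10, 4 and 4 reads.

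Cells of the epicardial surface, of the immune system and of nerve and fat were hardly seen. The mesothelial and epicardial list had 25, 15 and 28 reads in replicates 1, 2 and 3, of which 22, 14 and 24 came from Wt1, while Upk1b, Aldh1a2, Muc16 and Krt19 had none. The macrophage and monocyte list had 36, 18 and 18 reads, and its genes Cd14, C1qa, Fcgr1, Ccr2 and Aif1 had none. Lymphocyte genes had 14, 10 and 10 reads. The neutrophil list had 1, 0 and 1 reads, the Schwann and nerve list 6, 0 and 1 and the adipocyte list 3, 2 and 11. For replicate 2, a count of 0 reads allows, by the floor of 3 reads, a share of up to 0.00307% of nuclear reads, and the upper Wilson limit was 0.00393%. Mast cells, which depend on Kit, had 1, 1 and 4 reads over 4 listed genes: Tpsab1 and Mrgprb1 had none, Cpa3 had 0, 0 and 1, and Hdc had 1, 1 and 3. Another 6 mast cell genes were not among the listed genes. Of the fat cell genes, Plin1, Lep and Cidec had 0 reads in each library and Adipoq was not among the listed genes.

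Genes of cardiac development and of stem cells were mixed in level. Of 18 such genes 13 were listed, and 5 had a mean of at least 10, as did 3557 of all 15201 nuclear genes. The median of the 13 means was 4.19, against 2.33 for all nuclear genes. Kitl had the highest mean, followed by Ly6a, the gene of the Sca-1 antigen, with values of 78.5, 59.2 and 49.98 in replicates 1, 2 and 3. Per kb of exon Ly6a (51.9) and Kitl (19.2) stood above the median of the general endothelial list (17.1). Mef2c, a transcription factor of muscle and endothelium, had 49.2, 53.8 and 27.3, and Tbx20, a cardiac T-box factor, had 18.0, 19.7 and 14.8. The transporter gene Abcg2, a marker of side population cells, had 9, 4 and 7 reads. Isl1 and Pou5f1 had no reads. Nkx2-5, Hand2, Nanog, Sox2 and Mesp1 were not among the listed genes, and genes below 10 reads in every library of the series had been removed by the authors.

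Wnt signalling is the route that Sfrp2, the protein given later in the study, acts on, so its resting state in these cells is of interest. Of 28 gene names searched, 21 were found among the listed genes. Of these, 6 were detected in every library, as were 7384 of all 15201 nuclear genes. Ctnnb1, which encodes beta-catenin for both junctions and Wnt signalling, had values of 553, 473 and 315 in replicates 1, 2 and 3. The co-receptor gene Lrp5 had 39.7, 23.3 and 89.7, and Lrp6 had 18.9, 34.1 and 25.0. The receptor genes Fzd4 and Fzd6 had 30.3, 34.1 and 35.2, and 20.8, 16.1 and 10.2. Per kb of exon the mean levels were 86.1 for Ctnnb1, 5.23 for Lrp5, 4.94 for Fzd4 and 1.90 for Lrp6, so the receptors stood far below Ctnnb1. The ligand genes Wnt3a, Wnt4 and Wnt11, the inhibitor gene Dkk2 and the target genes Axin2, Nkd1 and Apcdd1 had no reads. Sfrp2 had 0, 4 and 0 reads, which is at the limit of detection.

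Cell division genes were near the floor. The 19 listed genes of 20 held 39, 23 and 35 reads in replicates 1, 2 and 3, with Ccna2 first at 12, 7 and 10 reads. The proliferation marker Mki67 is outside the highest 6, had 1, 2 and 0 reads and was chosen after its values were seen, and Aurkb, Birc5 and Plk1 had none. Class I antigen presentation was better represented. B2m, the light chain of class I molecules, had values of 155, 115 and 143, and H2-K1, a heavy chain, had 80.4, 61.0 and 105. Ciita, which drives class II genes, had no reads. Ribosomal protein genes held 0.402%, 0.442% and 0.405% of nuclear reads over 55 genes, of which Rpl4 alone had a mean of at least 50, and reads of these genes are uncertain because of their many pseudogene copies.

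The 3 libraries ranked genes similarly. Across 15201 nuclear genes, log2(value + 1) correlated at Pearson's r = 0.892 between replicates 1 and 2, 0.880 between 1 and 3 and 0.854 between 2 and 3. Spearman's rho for the same pairs was 0.857, 0.842 and 0.815. These are descriptions across genes, which are not independent replicates, and many of the genes have no reads in any library. Of the 100 highest nuclear genes in each library, 79 were shared by all 3. Each pair differed by more than counting error, with a chi-square per degree of freedom of 2.17 for replicates 1 and 2, 5.31 for 1 and 3 and 4.03 for 2 and 3, so all 3 were counted as separate libraries.

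**Figure D4:**
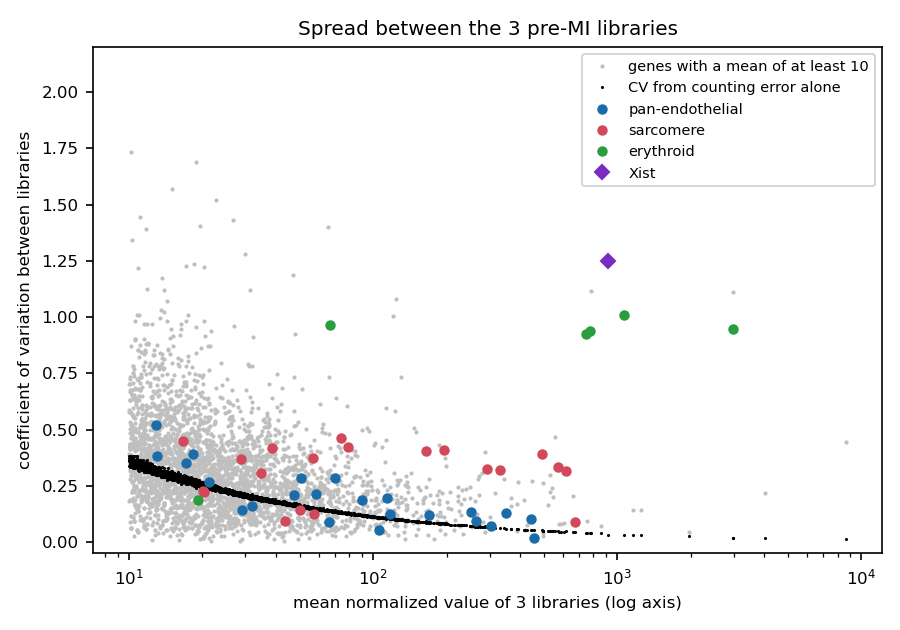
Coefficient of variation between the 3 pre-MI libraries against the mean normalized value on a log axis, for nuclear genes with a mean of at least 10, with black dots for the value that counting error alone would give. General endothelial genes lie near the black dots and most abundant sarcomere genes lie above them. Xist stands at 1.25, and the 4 globin genes between 0.925 and 1.01.

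For 226 genes the mean was 100 or more, and their median coefficient of variation was 0.170, against 0.0883 from counting error alone. It was at or below the counting value for 41 of them and over 2 times that value for 105. The 10 steadiest were Rac1, Irf2bp2, Ptprb, F11r, Hnrnpl, Ctnnd1, Clic5, Mgll, Dusp3 and Serinc3. Each of the 10 lay below its counting value, as Rac1 did at 0.0128 against 0.0979. Their order therefore cannot be told apart from counting error with 3 libraries. Rac1, a small GTPase of the cytoskeleton, had values of 135, 136 and 133 in replicates 1, 2 and 3. Ctnnd1, which binds cadherins at junctions, had 116, 118 and 111, and Clic5, an intracellular chloride channel protein, had 131, 124 and 125. The 10 most variable were Xist, Gm10801, Gm10800, Gm10717, Hba-a1, Gm21738, Hbb-b1, Hbb-b2, Hba-a2 and Arf3, and all but Xist were highest in replicate 3. The biological coefficient of variation, edgeR's estimate of spread beyond counting error, was 0.274 over the 3557 genes that reached a mean of 10. Without replicate 3 it was 0.201, without replicate 1 it was 0.308 and without replicate 2 it was 0.306.

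Genes that stood apart in 1 library were few in replicates 1 and 2 and more in replicate 3, a selection made after the values were seen. Among the 580 nuclear genes that reached a mean of 50, 14 were more than 1.5 times higher in replicate 1 than in the next library, 13 in replicate 2 and 52 in replicate 3. Of the 13 in replicate 2, 6 belonged to the sarcomere and cardiomyocyte lists, which held 16 of the 580 genes. Ldb3, a Z-disc protein, came first, with values of 56.8, 113 and 51.1 in replicates 1, 2 and 3. In replicate 3 the first was Ext2, an enzyme of heparan sulfate synthesis, with 18.0, 7.17 and 172. It was followed by 4 predicted genes and 5 erythroid genes, which are all of the erythroid list among the 580. Also in that set were Slc25a37, the iron importer of mitochondria, with 101, 64.5 and 203, and Bpgm, the red cell enzyme that makes 2,3-bisphosphoglycerate, with 51.1, 57.4 and 107.

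Sex-linked genes differed between the libraries as well. Xist, the noncoding RNA that coats the inactive X chromosome of female cells, had 2327 reads in replicate 1, 1 in replicate 2 and 479 in replicate 3. Per 100000 nuclear reads that was 1220, 1.02 and 264. The 4 Y-linked genes Ddx3y, Eif2s3y, Kdm5d and Uty together had 22, 28 and 26 reads, or 11.6 (exact 95% interval 7.26 to 17.5), 28.6 (19.0 to 41.4) and 14.4 (9.37 to 21.0) per 100000 nuclear reads. Replicates 1 and 3 therefore held both Xist and Y-linked reads, and replicate 2 held Y-linked reads with 1 read of Xist. The amplified cDNA was not stated to keep strand, so reads of Xist and of its antisense partner Tsix, listed with 18, 0 and 4 reads, cannot be told apart. The sources used here do not give the sex of the animals.

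**Figure D5:**
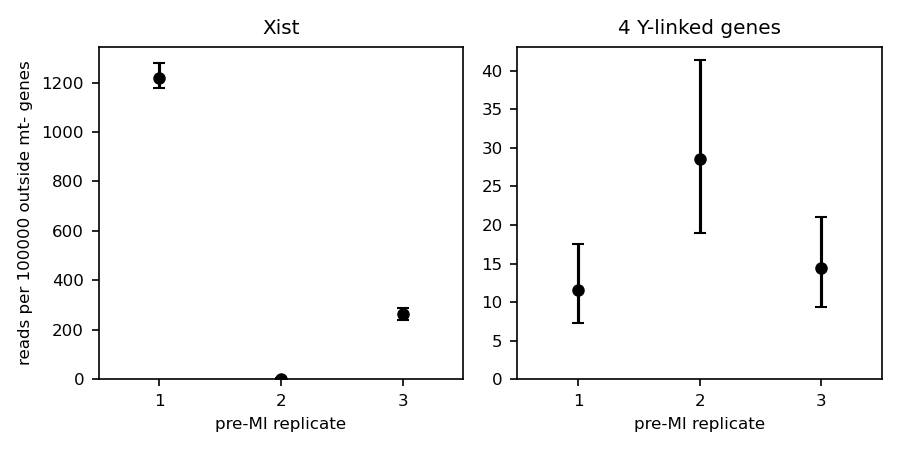
Reads of Xist and of 4 Y-linked genes per 100000 nuclear reads in each pre-MI replicate, on linear axes, with exact 95% intervals for counting error. Xist stands at 1220, 1.02 and 264 in replicates 1, 2 and 3, and the Y-linked sum at 11.6, 28.6 and 14.4.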

How the data were processed

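Total RNA of c-Kit(+) cells was isolated with a PicoPure kit, amplified as cDNA with the Ovation Pico WTA kit and sequenced on a HiSeq instrument, per the labels' protocols. Per the same protocols, Trim Galore with Cutadapt trimmed the reads, with 20 nt as the shortest length. STAR placed them on GRCm38, uniquely mapped reads were counted per gene by HTSeq, a gene needed 10 reads in some library, and DESeq2 supplied the normalization. The sources used here give no tool versions. The authors deposited normalized values, a signal in which reads per gene are scaled by each library's size factor, per the file headers. Pre-MI columns named as controls with numbers 1 to 3 were matched to the labels by group and number.

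Within each library every value was a whole multiple of 1 step, and 100% of values came out as whole reads after division (tolerance 0.001). Totals, shares and the dispersion used these reads. No test between groups was made. Exon lengths came from GENCODE vM21 (GRCm38), which matched 15061 of 15223 identifiers (98.94%). Ranks per kb of exon were taken among the 577 nuclear genes with a mean of at least 50 and an exon length. Shares carry 95% Wilson intervals, and the Y-linked and Xist rates exact binomial ones. Reads have no molecular identifiers, so intervals and floors of 3 reads cover counting error only. The dispersion was estimated with edgeR 4.0.16 (R 4.3.3) with an intercept only, for genes with a mean of at least 10, after a check on simulated data. Other values came from Python 3.11.15 with pandas 2.3.3 and scipy 1.17.1.

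The genes named were the 30 highest by mean, the 10 highest per exon kb, the chosen markers and Kit, up to 6 of the highest members of each list with defining members at 0, and the 10 steadiest and 10 most variable genes with a mean of at least 100; Myl3, Gja4, Cspg4, Pdgfra, Sfrp2 and Gapdh were added after their values were seen, as were those the text says so of. Members, lists and this rule were chosen with earlier results of these data known. Alternatives were leaving out each library, other scalings (total nuclear reads, TMM), other minimum levels and pseudocounts, ranking per kb or by the median, and other denominators of shares.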

Additional observations from a re-analysis of the deposited data

How the results depend on the processing

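Of 99 alternative values over 18 results, 74 moved by less than the spread between libraries or, for counts of genes, by less than 1.5 times. Among them were 48 of 51 that left out 1 library. For gene levels and list shares that outcome was fixed in advance, because a mean without 1 library always lies within the SD of the 3. Those values therefore say nothing of stability. The number of genes read in every library was 4843 at a minimum of 3 reads and 1994 at 10 reads, against 7384 at 1 read. The mean Spearman rho over pairs was 0.838, against 0.711 for genes with a mean of at least 10 and 0.767 for those of at least 50, and without 1 library it ranged from 0.815 to 0.857. The mean Pearson r was 0.875, against 0.816 and 0.917 with pseudocounts of 0.1 and 10, and 0.792 and 0.841 for means of at least 10 and 50, and without 1 library it ranged from 0.854 to 0.892. The biological coefficient of variation ranged from 0.201 to 0.308 without 1 library. Of the 100 highest genes by mean, 66 were also among the 100 highest per exon kb, ranked over genes with a mean of at least 50. With all reads as the denominator, mean shares were 0.0746% for general endothelial, 0.114% for capillary, 0.0750% for basement membrane, 0.0865% for sarcomere, 0.0319% for cardiomyocyte calcium and metabolism, 0.140% for erythroid and 0.0439% for immediate early genes. Without the highest member, general endothelial genes held 1.42%, capillary genes 1.52% and basement membrane genes 0.980%. Without the reads of RP23-81C12.3, RP23-81C12.1, Gm10800, Gm10801, Gm10717, Gm21738, 4 globin genes and Xist in the total, an alternative chosen after seeing the data, they held 1.85%, 2.86% and 1.83%. The cause of the moves in correlation was not tested. No paired analysis was possible because only 1 group is described. Depth outside mitochondrial genes limits what can be said of genes with values near the floor of 3 reads.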

Other observations

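The 11 genes RP23-81C12.3, RP23-81C12.1, Gm10800, Gm10801, Gm10717, Gm21738, Hbb-b1, Hbb-b2, Hba-a1, Hba-a2 and Xist together held 6.68% of nuclear reads in replicate 1, 6.50% in replicate 2 and 16.7% in replicate 3; the set was chosen after its values were seen. Lars2, the mitochondrial leucyl-tRNA synthetase, had values of 280, 599 and 797 in replicates 1, 2 and 3. Gm23935, annotated as a miRNA gene, had 179, 253 and 291. The 93 listed genes of sensory receptors, which the heart is not known to use in quantity, held 7, 5 and 10 reads in replicates 1, 2 and 3. Gapdh, often used as a reference gene, had 3, 2 and 5 reads. Only uniquely mapped reads were counted, so reads that match a pseudogene copy equally well are left out of these counts. How many were left out was not tested, so the counts are no measure of its level.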
